A study of Mus musculus with 2 samples.

Results

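The genes described here are 10 that cells transcribe late in the division cycle, on the way into and out of mitosis: Ccna2, Cdk1, Ccnb1, Plk1, Aurka, Cdc20, Ube2c, Top2a, Cenpf and Mki67. They are 10 of the 28692 genes in the count tables, taken by symbol, and each symbol named 1 row. Their UMIs (unique molecular identifiers, each marking 1 captured RNA molecule) were compared between TAK-981 and vehicle in 3 classes of cells. A20 cells were barcodes with at least 1 UMI of Cd79a, a B cell receptor chain, and 0 UMIs of the CD3 genes and of Lyz2. T cells had at least 2 UMIs of Cd3d, Cd3e and Cd3g together, and myeloid cells at least 5 UMIs of the lysozyme gene Lyz2. All had under 10% of their UMIs from mitochondrial genes. The A20 class held 1754 of 2396 barcodes with TAK-981 and 2191 of 2579 with vehicle, the T cell class 45 and 60, and the myeloid class 39 and 44. Pairs of values below give TAK-981 first.

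Both libraries came from subcutaneous tumours of A20, a mouse B cell lymphoma line, in Balb/c mice, inoculated with 1000000 cells each and dosed at tumours of about 300 mm3. In the first arm TAK-981, an inhibitor of the enzyme that activates the protein modifier SUMO, had been injected intravenously at 7.5 mg/kg, and in the second only the vehicle, 20% HPbCD, a cyclodextrin solution. Tumours were excised 8 h later, made into a suspension over a 70 µm mesh, cleared of dead cells, and run on the 10x Genomics 5' single-cell kit. Each arm is 1 library, and the labels do not give the number, sex or age of the mice behind it. No difference between the arms therefore has a replicate check or a test, and every interval below covers counting error only, at 95%, with UMIs or cells taken as independent. The A20 class cannot be separated from host B cells by its rule, and the tumours carried host T and myeloid cells in small numbers.

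The libraries were not equally deep. A20 cells held a median of 16195 UMIs with TAK-981 and 22309 with vehicle, T cells 7156 and 9068, and myeloid cells 8287 and 10636.5. The mitochondrial limit left out 376 and 124 barcodes, and 182 and 160 of the remaining ones fell in no class. All 11 of 11 B cell markers were detected in A20 cells of both libraries, 12 of 12 T cell markers in T cells, and 7 and 10 of 10 monocyte/macrophage markers in myeloid cells. B cell markers were also counted in the host classes. Without Cd74, which antigen-presenting myeloid cells make themselves, the other 10 made up 7.62 and 12.2 UMIs per 10000 in T cells and 2.54 and 2.04 in myeloid cells, against 35.8 and 32.8 in A20 cells. Cd74 alone made up 13.3 and 16.9 in T cells, 54.8 and 192 in myeloid cells and 42.7 and 46.8 in A20 cells. The libraries had 11 barcode sequences in common, of which 10 were A20 cells in both.

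Entry into mitosis is driven by the kinase CDK1, which is active only when bound to a cyclin, first cyclin A and then cyclin B, and which is helped by the kinases PLK1 and Aurora A. Exit begins when the anaphase-promoting complex, with its activator CDC20 and its ubiquitin-conjugating enzyme UBE2C, marks cyclin B and securin for destruction. Most of these genes are silent in resting cells and are transcribed from late S phase to mitosis, under the MuvB complex with B-MYB and FOXM1, which binds the cell cycle homology region (CHR), and with NF-Y at CCAAT boxes. Lymphoma lines divide fast, so that a large share of their cells is in cycle at any time.

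The promoters of the members are shown because these shared elements are the best known common feature of the group, one that the choice of genes did not use. RefSeq windows of 300 bases, from 250 before to 50 after the transcript start on GRCm38.p6, were found for 9 of the 10 genes, and Ccna2 had none in the table used. The letters searched on both strands were TTTGAA, the CHR core, CCAAT, and the E2F sites TTTGGCGC, TTTCCCGC, TTTCGCGC and TTTGCCGC. Below, capitals mark the CHR core (TTTGAA, or TTCAAA on the other strand) and the CCAAT box (CCAAT or ATTGG), each sequence running 5′ to 3′ on the strand of its gene. Cdc20 is at chr4:118437294-118437593 (minus strand), Ube2c at chr2:164769679-164769978 (plus strand), Top2a at chr11:99024140-99024439 (minus strand), Mki67 at chr7:135716330-135716629 (minus strand) and Ccnb1 at chr13:100786437-100786736 (minus strand).
Cdc20: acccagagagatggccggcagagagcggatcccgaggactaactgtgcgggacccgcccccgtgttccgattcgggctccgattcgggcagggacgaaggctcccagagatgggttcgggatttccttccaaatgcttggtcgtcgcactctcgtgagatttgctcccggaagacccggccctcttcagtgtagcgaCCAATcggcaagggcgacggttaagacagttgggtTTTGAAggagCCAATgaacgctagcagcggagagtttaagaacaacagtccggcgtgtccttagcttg
Ube2c: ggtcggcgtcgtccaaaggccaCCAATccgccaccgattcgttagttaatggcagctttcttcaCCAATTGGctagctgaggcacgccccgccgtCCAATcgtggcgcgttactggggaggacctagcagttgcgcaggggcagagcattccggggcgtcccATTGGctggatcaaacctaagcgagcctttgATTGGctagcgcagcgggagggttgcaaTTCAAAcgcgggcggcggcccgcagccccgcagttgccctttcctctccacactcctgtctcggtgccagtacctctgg
Top2a: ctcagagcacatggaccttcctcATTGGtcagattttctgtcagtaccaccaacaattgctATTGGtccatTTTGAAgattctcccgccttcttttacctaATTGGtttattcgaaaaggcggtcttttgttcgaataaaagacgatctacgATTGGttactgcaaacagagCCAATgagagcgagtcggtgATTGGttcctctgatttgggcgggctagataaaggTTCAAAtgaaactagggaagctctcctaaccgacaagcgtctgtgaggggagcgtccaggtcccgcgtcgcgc
Mki67: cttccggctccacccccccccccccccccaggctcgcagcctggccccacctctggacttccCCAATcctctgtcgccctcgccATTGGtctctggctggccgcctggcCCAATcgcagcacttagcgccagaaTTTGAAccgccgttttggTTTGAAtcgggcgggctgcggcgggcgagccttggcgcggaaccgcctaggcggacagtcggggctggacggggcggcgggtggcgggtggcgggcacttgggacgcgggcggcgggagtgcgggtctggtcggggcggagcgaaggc
Ccnb1: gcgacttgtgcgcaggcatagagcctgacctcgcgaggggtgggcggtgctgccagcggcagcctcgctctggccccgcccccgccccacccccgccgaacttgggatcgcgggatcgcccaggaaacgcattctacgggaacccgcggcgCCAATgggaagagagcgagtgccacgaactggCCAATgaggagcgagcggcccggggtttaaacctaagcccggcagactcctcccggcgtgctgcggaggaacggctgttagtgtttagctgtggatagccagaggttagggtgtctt
Cdc20 and Ube2c against Top2a and Mki67 are the members that part most along the mitochondrial share of the cells, described below, and Ccnb1 has the one window without the CHR letters.

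The CHR core was found in 8 of the 9 windows, all but that of Ccnb1, against 17.9% of all 32851 windows in the table. Every one of the 9 windows held a CCAAT box, against 37.4% of all windows, and 8 held both, against 6.95%. Cdc20 had its CHR core 18 to 13 bases before the start, between CCAAT boxes at 53 to 49 and at 8 to 4 bases before it. In Top2a a CHR core lay 23 to 18 bases before the start and in Ube2c 29 to 24, each downstream of several CCAAT boxes, while Mki67 had CHR cores at 116 to 111 and 98 to 93 bases before the start, and Ccnb1 only a pair of CCAAT boxes, at 99 to 95 and 67 to 63. An E2F site, TTTCGCGC, was present in 1 member, Cdk1, against 2.26% of all windows. Bases are counted from the start as 0, and a match describes the letters of the window, not binding.

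**Figure D1:**
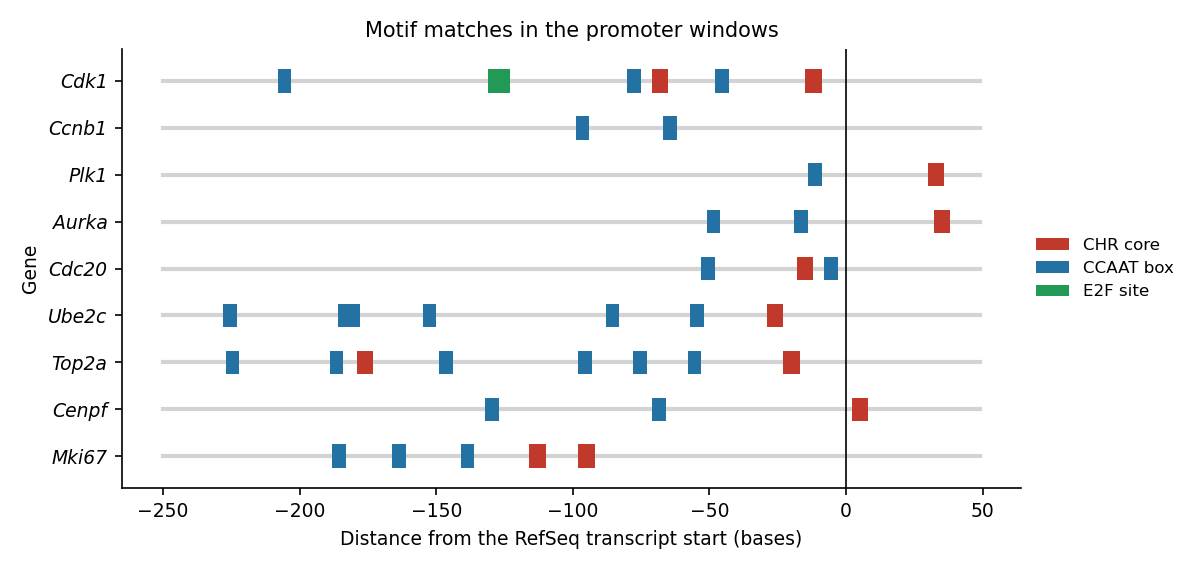
Positions of the CHR core (red), the CCAAT box (blue) and the E2F site (green) in the RefSeq promoter windows of 9 members; the horizontal axis gives the distance in bases from the annotated transcript start (vertical line), and grey bars span the window. A CHR core appears in 8 of the 9 windows, and every window has at least 1 CCAAT box.

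In A20 cells the mitotic genes differed little between the libraries. Together they made up 12.03 UMIs per 10000 in the TAK-981 library (39048 UMIs) and 11.76 in vehicle (62341 UMIs), a log2 ratio of 0.03 (0.01 to 0.05). The median log2 ratio of the 10 genes was -0.09, with values from -0.19 to 0.36, beside a median of 0.06 over all 12250 genes with at least 10 UMIs. None of the 10 was 1.5-fold higher or lower, while 7.97% of all genes were at least 1.5-fold higher and 3.49% at least 1.5-fold lower. Genes counted as often as these seldom reached that size: of 3927 genes with 1983 to 20252 UMIs, the range of the members, 99.0% lay within 1.5-fold. Ccna2, Cdk1, Ccnb1, Plk1 and Cdc20 had counting intervals below 0, Cenpf and Mki67 had intervals above 0, and Aurka, Ube2c and Top2a had intervals that held 0.

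Among the cyclins and their kinase, values were slightly lower in the TAK-981 library. Ccna2 (ENSMUSG00000027715), cyclin A2, which acts in S phase and at mitotic entry, had 3381 UMIs with TAK-981, a level of 104 CPM (UMIs per 1000000 UMIs of the class), and 5991 with vehicle, 113 CPM. Its log2 ratio was -0.12 (-0.18 to -0.06). Cdk1 (ENSMUSG00000019942), the kinase that starts mitosis, had 3351 UMIs (103 CPM) and 6092 (115 CPM), a log2 ratio of -0.15 (-0.22 to -0.09). For Ccnb1 (ENSMUSG00000041431), cyclin B1, the partner of CDK1 that is destroyed at anaphase, the counts were 2310 (71.2 CPM) and 4078 (76.9 CPM), and the log2 ratio was -0.11 (-0.19 to -0.04). All 3 levels were thus slightly below vehicle, with intervals that leave out 0.

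The kinases that assist CDK1 gave the same picture with fewer UMIs. Plk1 (ENSMUSG00000030867), the polo-like kinase that activates CDK1 and matures centrosomes, had 1029 UMIs (31.7 CPM) against 1912 (36.1 CPM), a log2 ratio of -0.19 (-0.30 to -0.08). Aurka (ENSMUSG00000027496), Aurora kinase A, which acts at centrosomes and the spindle, had 732 (22.5 CPM) against 1251 (23.6 CPM), and its log2 ratio was -0.07 (-0.20 to 0.07). The interval of Aurka holds 0, so that no difference was detectable at this depth.

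Of the genes of mitotic exit, Cdc20 (ENSMUSG00000006398), the activator of the anaphase-promoting complex, had the lowest ratio of the 10, next to Plk1. It had 2461 UMIs (75.8 CPM) with TAK-981 and 4590 (86.6 CPM) with vehicle, a log2 ratio of -0.19 (-0.26 to -0.12). Ube2c (ENSMUSG00000001403), the enzyme that hands ubiquitin to that complex, had 6932 (214 CPM) and 11273 (213 CPM), with a log2 ratio of 0.01 (-0.04 to 0.05). The activator was thus lower by a small amount and the conjugating enzyme level.

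Among the genes of chromosome structure, Mki67 and Cenpf were higher in the TAK-981 library and Top2a was level. Top2a (ENSMUSG00000020914), topoisomerase II alpha, which untangles sister chromatids, had 6425 UMIs (198 CPM) against 10497 (198 CPM). Cenpf (ENSMUSG00000026605), a large protein of the outer kinetochore, had 3521 (108 CPM) against 5311 (100.2 CPM), a log2 ratio of 0.11 (0.05 to 0.18). Mki67 (ENSMUSG00000031004), the Ki-67 protein that coats mitotic chromosomes and serves as a marker of dividing cells, had 8906 (274 CPM) against 11346 (214 CPM). Its log2 ratio of 0.36 (0.32 to 0.40), or 1.28-fold (1.25 to 1.32), was the highest of the 10 and exceeded that of 94.7% of the genes counted as often as the members. Without Mki67 the log2 ratio of the sum of the other 9 was -0.05 (-0.07 to -0.03).

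**Figure D2:**
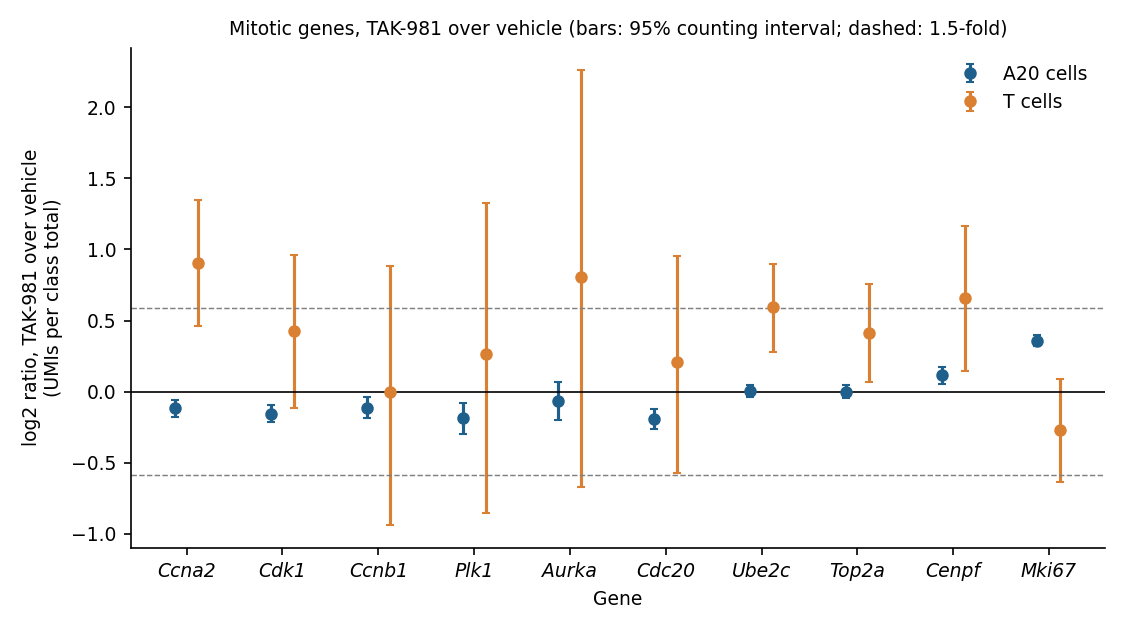
Log2 ratio of TAK-981 over vehicle for each of the 10 members, from UMIs summed over the cells of a class and divided by the class total, in A20 cells (blue) and T cells (orange); bars are 95% counting intervals and dashed lines mark 1.5-fold. In A20 cells all 10 points lie inside the dashed lines and Mki67 is highest, while in T cells 8 of 10 lie above 0 and the bars are wide.

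The share of A20 cells with a UMI of a member depends on depth, so each cell was thinned at random to 4000 UMIs, which none fell short of. Mki67 was then found in 47.5% (45.2 to 49.9%) of TAK-981 and 40.7% (38.6 to 42.8%) of vehicle cells, and Cdk1 in 24.1% (22.1 to 26.1%) and 28.8% (26.9 to 30.7%). For these 2 genes the intervals of the libraries did not overlap. For the other 8 they did, which does not show those shares to be equal. The thinned shares of the others were 26.3% and 27.9% for Ccna2, 17.3% and 18.7% for Ccnb1, 9.69% and 11.2% for Plk1, and 6.44% and 6.66% for Aurka. Cdc20 was found in 19.9% and 22.6%, Ube2c in 31.2% and 33.8%, Top2a in 37.6% and 40.0%, and Cenpf in 23.9% and 23.5%. A single random draw adds noise of its own. Averaged over all possible draws, the expected share was 47.1% against 41.8% for Mki67, 24.5% against 28.2% for Cdk1 and 25.7% against 29.0% for Ccna2, and the other 7 differed by 0.06 to 2.36 percentage points. Without thinning the shares were 71.5% and 71.1% for Mki67 and 48.9% and 59.0% for Ccna2, where the deeper vehicle cells show more genes.

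**Figure D3:**
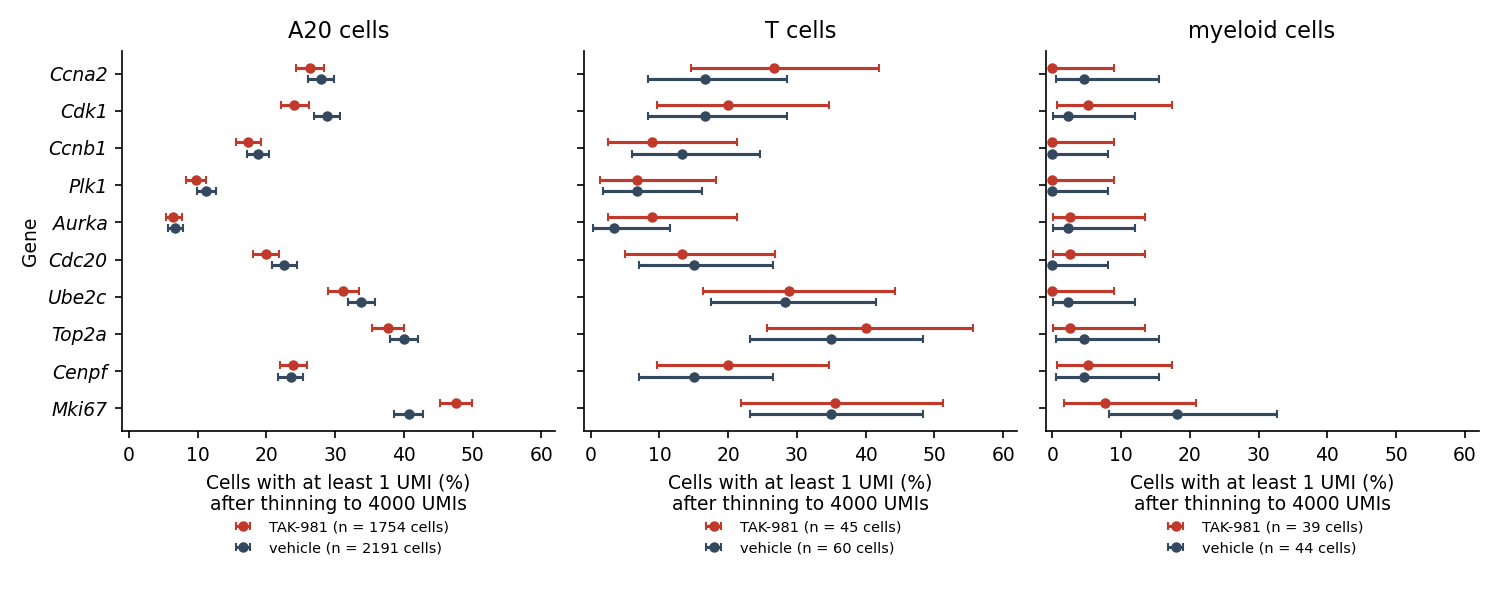
Share of cells with at least 1 UMI of each member after thinning every cell to 4000 UMIs (horizontal axis, percent), for A20, T and myeloid cells of the TAK-981 (red) and vehicle (dark blue) libraries; bars are exact 95% binomial intervals. In A20 cells only the intervals of Mki67 and Cdk1 do not overlap, and in both host classes the bars of the libraries overlap for each gene.

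Within the A20 cells that held a member, its level was higher in the TAK-981 library for each of the 10. Over positive cells without thinning, Mki67 made up 3.46 UMIs per 10000 with TAK-981 and 2.67 with vehicle, Cenpf 1.93 and 1.60, Top2a 3.02 and 2.71, and Ube2c 3.31 and 2.99. Ccna2 made up 1.77 and 1.64, Cdk1 1.85 and 1.71, Ccnb1 1.42 and 1.29, Cdc20 1.42 and 1.39, Plk1 0.91 and 0.88, and Aurka 0.75 and 0.65. This quantity moves with depth, since shallow cells count as positive only when their level is high, and positive cells were deeper than negative ones (medians of 18539 against 11371.5 UMIs for Mki67 in the TAK-981 library and 26591 against 14685 in vehicle). Thinned, the UMIs per positive cell were 2.35 and 2.01 for Mki67, 1.67 and 1.53 for Cenpf, 1.44 and 1.36 for Ccna2, and 1.41 and 1.41 for Ccnb1.

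Counted per cell, the shares of A20 cells with none and with 5 or more of the 10 genes had overlapping intervals in the libraries. After thinning, 26.9% (24.8 to 29.0%) of TAK-981 and 25.9% (24.1 to 27.8%) of vehicle cells held none of the 10, and 52.6% and 53.8% held 1 to 4. Within that range 18.9% and 15.1% held 1 member and 10.5% and 13.5% held 2. Cells with 5 or more made up 20.5% (18.7 to 22.5%) and 20.3% (18.6 to 22.1%), 360 of 1754 and 445 of 2191, and held 55.8% and 53.6% of all thinned member UMIs. These cells were deeper than those with none, with medians of 18202.5 against 14877 UMIs with TAK-981 and 27266 against 19452 with vehicle. Unthinned, 48.5% and 58.4% of cells held 5 or more. These ranges divide a continuous count and are not cell cycle phases.

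**Figure D4:**
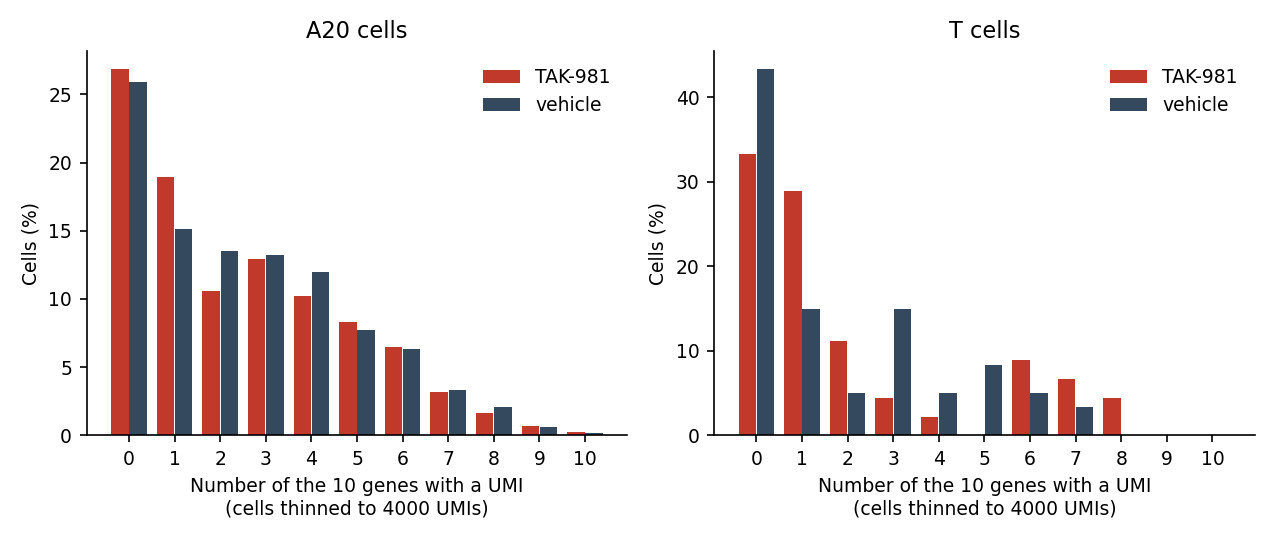
Number of the 10 members with at least 1 UMI in a cell thinned to 4000 UMIs (horizontal axis) against the percent of cells, for A20 cells (left; 1754 TAK-981 and 2191 vehicle cells) and T cells (right; 45 and 60). In A20 cells the TAK-981 bar is higher at 1 member (18.9% and 15.1%) and lower at 2 (10.5% and 13.5%), the bars are close from 5 on, and in T cells 9 and 10 cells hold 5 or more.

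The members tended to be found in the same cells. Over thinned A20 cells, Pearson's r between the log-transformed UMIs of 2 members was above 0 for all 45 pairs in both libraries, with a median of 0.27 in the TAK-981 (1754 cells) and 0.23 in the vehicle library (2191 cells). Values ran from 0.11 (Cdc20 and Mki67) to 0.44 (Top2a and Mki67) in the TAK-981 library, and from 0.10 (Plk1 and Mki67) to 0.42 (Ccnb1 and Ube2c) in vehicle. Cells of a library share its depth and free RNA, and these values are descriptions. Among Top2a-positive cells, Ccna2 was found in 42.7% (38.9 to 46.6%) and 44.0% (40.7 to 47.4%), Ccnb1 in 26.5% and 27.1%, Plk1 in 15.2% and 18.2%, Cdc20 in 28.3% and 31.9%, and Mki67 in 68.8% (65.1 to 72.3%) and 61.6% (58.3 to 64.8%). Among Top2a-negative cells these shares were 16.4% and 17.2% for Ccna2 and 34.7% and 26.7% for Mki67.

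Mki67 was higher in the TAK-981 library whether or not a cell held the other members. In thinned A20 cells with 0 of the other 9 genes, Mki67 was found in 24.6% of 625 TAK-981 and 15.2% of 669 vehicle cells, a log2 ratio of its UMIs per cell of 0.69 (0.37 to 1.01). With 1 to 2 of the others the shares were 51.9% and 42.4% (0.56, 0.40 to 0.73), with 3 to 4 they were 66.0% and 57.0% (0.51, 0.35 to 0.67), and with 5 or more 69.1% and 63.8% (0.48, 0.30 to 0.66). All 4 intervals lay above 0. Cenpf had an interval above 0 only in cells with 5 or more of the others, at 0.33 (0.11 to 0.56), where its shares were 60.3% and 52.99%. Other members had intervals below 0 in cells with 1 to 2 of the others. These were Cdk1 at -0.59 (-0.94 to -0.25), Cdc20 at -0.53 (-0.93 to -0.14), Ccna2 at -0.36 (-0.67 to -0.04) and Ube2c at -0.35 (-0.61 to -0.09). In the other ranges the intervals of these genes held 0.

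The difference in Mki67 moved with the mitochondrial share of the cells, a measure that can rise in damaged or stressed cells. Of A20 cells, 30.7% with TAK-981 and 47.7% with vehicle had under 2% mitochondrial UMIs, and 7.01% and 3.10% had 7.5 to 10%. Between these ranges the level of Mki67 went from 2.08 to 5.76 UMIs per 10000 in the TAK-981 library, 2.77-fold (2.52 to 3.04), and from 1.71 to 7.30 in vehicle, 4.27-fold (3.87 to 4.71). Top2a went from 1.86 to 3.61 and from 1.84 to 4.28, and Cenpf from 1.06 to 1.56 and from 0.95 to 1.92. The opposite was found for Ube2c, which went from 2.70 to 0.86 and from 2.39 to 0.95, and for Cdc20, from 0.92 to 0.45 and from 0.95 to 0.64. In both libraries, then, the members parted along this measure: Mki67, Top2a and Cenpf were higher where the mitochondrial share was high, and Ube2c and Cdc20 lower. The median depth went from 19158.5 to 6950 UMIs and from 26224.5 to 8327 over the same ranges.

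The members that were higher have the longest coding transcripts of the 10 in GENCODE, with 11130 bases for Cenpf, 10061 for Mki67 and 5221 for Top2a, against 1793 for Cdc20 and 2191 for Ube2c. Over the 10 members Spearman's rho between the longest coding transcript and the log2 change from under 2% to 7.5 to 10% was 0.84 in each library, a description over 10 genes that share these cells. Malat1, a nuclear long non-coding RNA chosen after its values had been seen, went the same way, from 10.8 to 43.3 UMIs per 10000 with TAK-981 and from 6.67 to 33.6 with vehicle. In the A20-type barcodes left out for 10% or more mitochondrial UMIs, 275 and 88, Mki67 stood at 8.43 and 7.85 UMIs per 10000, Top2a at 5.35 and 5.29, Cenpf at 2.84 and 3.02, and Ube2c at 1.05 and 0.85.

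**Figure D5:**
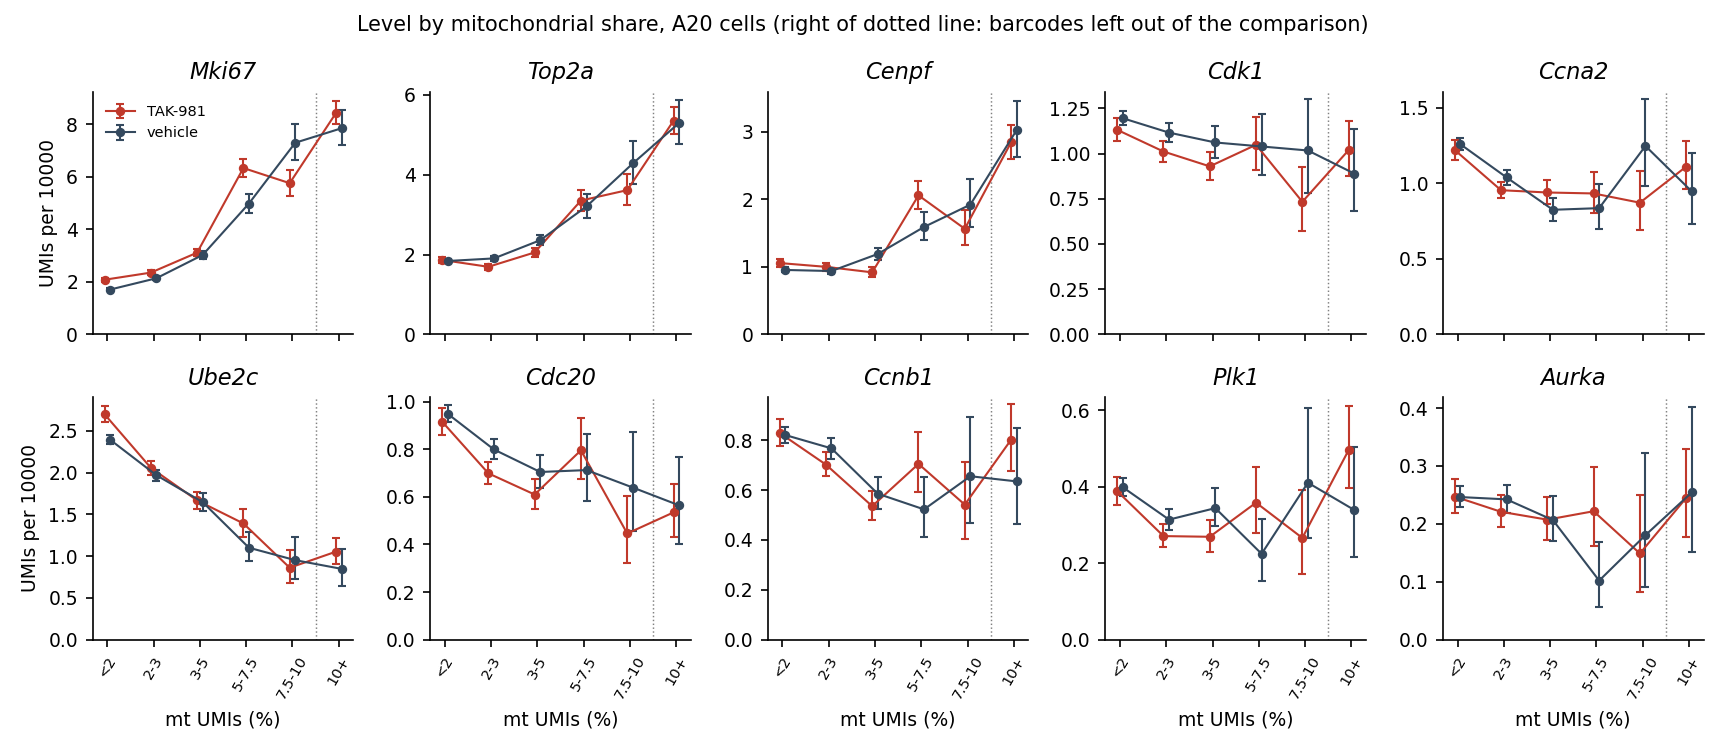
Level of each member in A20-type cells (vertical axis, UMIs per 10000 UMIs, a separate scale for each gene) by the cell's percent of mitochondrial UMIs (horizontal axis), for TAK-981 (red) and vehicle (dark blue); bars are exact 95% Poisson intervals and the range right of the dotted line was left out of the comparison. Mki67, Top2a and Cenpf are higher and Ube2c is lower towards the right in both libraries.

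Within single ranges of the mitochondrial share the log2 ratio of Mki67 was smaller than over all A20 cells, or turned. It was 0.29 under 2%, 0.14 from 2 to 3%, 0.04 from 3 to 5%, 0.35 from 5 to 7.5% and -0.34 from 7.5 to 10%. With both libraries weighted to the same makeup of these ranges, it was 0.17, against 0.36 unweighted. The same weighting gave 0.12 for Ube2c, -0.08 for Top2a, -0.04 for Ccna2 and -0.11 for Cdc20. Among cells under 2%, 5 or more members were found in 25.8% (22.2 to 29.8%) of 538 TAK-981 and 20.3% (17.9 to 22.8%) of 1046 vehicle cells, a difference of 5.57 percentage points against 0.21 over all A20 cells. From 2 to 3% the shares were 19.5% and 20.1%, and from 3 to 5% 15.7% and 20.6%. From 5 to 7.5% they were 21.9% and 20.3%, and from 7.5 to 10% 14.6% and 22.1%. In each range, also under 2%, the intervals of the libraries overlapped, which does not show the shares to be equal. These ranges were set after the values had been seen.

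The lower levels of the cyclins, Cdk1, Plk1 and Cdc20 were also compared among cells of like depth. In A20 cells with 10000 to 20000 UMIs, 608 and 603 of them, the log2 ratio was -0.02 (-0.17 to 0.13) for Ccna2, -0.05 (-0.20 to 0.09) for Cdk1, 0.01 (-0.17 to 0.20) for Ccnb1 and 0.11 (-0.06 to 0.28) for Cdc20. In cells with 30000 or more, 289 and 683, these were 0.05, -0.03, 0.03 and -0.13 (-0.24 to -0.03). Such deep cells made up 16.5% of TAK-981 and 31.2% of vehicle A20 cells, and the members together stood at 14.8 and 13.7 UMIs per 10000 in them, against 10.9 and 9.60 in cells with 10000 to 20000. Mki67 was above 0 in each of the 4 depth ranges, at 0.39, 0.55, 0.33 and 0.30. In cells under 10000 UMIs, 491 and 363, Ccna2 was lower, at -0.29 (-0.53 to -0.05), and the intervals of Cdk1, Ccnb1 and Cdc20 held 0. Plk1 was lower in these cells too, at -0.44 (-0.83 to -0.05), and its intervals in the deeper ranges held 0. From 20000 to 30000 UMIs the intervals of the cyclins, Cdk1 and Cdc20 held 0, with Cdc20 at -0.13 (-0.28 to 0.01). Weighted to the same makeup of depth, Ccna2 stood at 0.02 and Ccnb1 at 0.04, on the other side of 0 from their values over all A20 cells, Cdk1 at -0.02, Cdc20 at -0.09 and Mki67 at 0.36.

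The genes most like the members in A20 cells were other genes of chromatin and the spindle. Of 5853 genes found in at least 5% of thinned cells, the 10 non-members with the highest Pearson r to the summed members, taking the lower of the 2 libraries, were Hmgb2 (0.68 in TAK-981 and 0.65 in vehicle), Tubb5 (0.61 and 0.56), Tuba1b (0.53 and 0.53), H2afx (0.55 and 0.51), Cks2 (0.52 and 0.49), Tubb4b, Birc5, Stmn1, Nusap1 and H2afz (0.48 and 0.42). The median r of all genes compared was 0.02 in each library. Of these 10 genes 8 had a log2 ratio below 0, and those of Tubb5 (-0.20), Tuba1b (-0.21), H2afx (-0.22), Tubb4b (-0.15), Birc5 and Stmn1 had intervals below 0, while Nusap1 (0.09) and H2afz lay above 0. Values ran from -0.34 (-0.37 to -0.31) for Stmn1, which destabilises microtubules, to 0.11 (0.10 to 0.13) for H2afz, a histone variant. Hmgb2, a chromatin protein of dividing cells, stood at -0.02 (-0.03 to 0.00), and Birc5, the survivin of the chromosomal passenger complex, at -0.20 (-0.25 to -0.15).

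Lists of related mitotic genes in A20 cells were level as well, beside 7.97% of all genes at least 1.5-fold higher and 3.49% lower. Of 19 further genes of mitotic entry 1 was at least 1.5-fold higher and 0 lower (median log2 ratio -0.05). That gene was Cdkn3, a phosphatase that removes an activating phosphate from CDKs, with 1012 UMIs against 811 and a log2 ratio of 1.03 (0.89 to 1.16). At the other end of the list were Pkmyt1, at -0.38 (-0.51 to -0.25), and Wee1, at -0.32 (-0.56 to -0.08), both kinases that hold CDK1 inactive, and next to Cdkn3 was Plk4, a kinase of centriole duplication, at 0.23 (0.12 to 0.34). Of 27 genes of the spindle checkpoint and the anaphase-promoting complex (median -0.01), 35 of the centromere and kinetochore (0.02), 34 of spindle motors, chromosomal passengers and cytokinesis (-0.06) and 24 of condensin, cohesin and chromosome structure (0.11), 0 reached 1.5-fold either way.

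Named by size, the ends of those lists were Mad1l1 (-0.27) and Trip13 (-0.22) against Mad2l1bp (0.23) and Anapc4 (0.21) for the checkpoint and the anaphase-promoting complex, and Cenpu (-0.37) and Cenpn (-0.29) against Mis12 (0.34) and Cenpa (0.25), the histone of centromeres, for the kinetochore. In the spindle list Stmn1 (-0.34) and Kif20a (-0.26), a motor of cytokinesis, stood against Kif18b (0.32, on 52 and 68 UMIs, with an interval from -0.23 to 0.86) and Prc1 (0.22), which bundles the microtubules of the spindle midzone. In the list of condensin, cohesin and chromosome structure, Cdca3 stood at -0.23 (-0.31 to -0.15) and the histone variant H2afx at -0.22 (-0.25 to -0.19). At its other end were Stag1 and Wapl, a subunit and a release factor of cohesin, at 0.53 (0.41 to 0.64) and 0.36 (0.28 to 0.44). The regulators of these genes, 23 of the DREAM and MuvB complexes and the E2F family, had a median of 0.00 with 0 at 1.5-fold, from Mybl2, which encodes B-MYB, at -0.38 (-0.48 to -0.29), and E2f1, at -0.27 (-0.50 to -0.05), to the pocket proteins Rb1, at 0.37 (0.06 to 0.69), and Rbl2, at 0.39 (0.13 to 0.64). Among 21 measured CDK inhibitors and p53 targets (median 0.00) 1 was at least 1.5-fold higher, Sesn1 at 0.78 (0.59 to 0.98), and 1 lower, Phlda3 with 14 UMIs against 39, at -0.77 (-1.77 to 0.14). Next to these ends stood Trp53inp1 at 0.53 (0.36 to 0.70) and Plk3 at -0.57 (-0.86 to -0.29). Cdkn1a, the inhibitor p21, had 147 UMIs against 240 and a log2 ratio of 0.00 (-0.31 to 0.30).

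The G1/S list gave lower values than the mitotic genes in the same A20 cells. Of its 46 genes, which act at the start of S phase and in replication, 39 lay below 0, and 32 had intervals below 0 and 4 above, with a median log2 ratio of -0.15 and 0 at 1.5-fold. Mcm6, a subunit of the replicative helicase, had 4911 UMIs against 10846 and stood at -0.44 (-0.48 to -0.39), and Ung, a uracil glycosylase, at -0.41 (-0.52 to -0.31). Casp8ap2 stood at 0.33 (0.25 to 0.41) and cyclin E2 (Ccne2) at 0.32 (0.17 to 0.46). Unlike the members, the G1/S genes were not compared within ranges of depth or mitochondrial share. The part of these in the lower values was not tested.

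In T cells 4 of the 10 members, Ccna2, Ube2c, Top2a and Cenpf, had counting intervals above 0, and those of the other 6 held 0, from few cells. Together the 10 made up 14.3 UMIs per 10000 (635 UMIs) against 10.9 (941 UMIs), a log2 ratio of 0.39 (0.24 to 0.54). The median log2 ratio of the 10 was 0.42, beside -0.04 over all 7868 genes with at least 10 UMIs. At least 1.5-fold higher were 4 of the 10, Ccna2, Aurka, Ube2c and Cenpf, against 15.0% of all genes, and 0 were at least 1.5-fold lower, against 18.7%.

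Cyclin A2 had the highest ratio. Ccna2 had 87 UMIs (196 CPM) in 16 of 45 TAK-981 T cells and 90 UMIs (104 CPM) in 24 of 60 vehicle T cells, 1.87-fold (1.38 to 2.55). Its partner Cdk1 had 52 (117 CPM) against 75 (86.9 CPM), at 0.43 (-0.11 to 0.96), and Ccnb1 had 17 against 33, at -0.00 (-0.94 to 0.88). The kinases were counted too seldom to compare: Plk1 had 13 against 21 and Aurka 9 against 10, with log2 intervals from -0.86 to 1.33 and from -0.67 to 2.26. Ube2c had 157 UMIs (353 CPM) against 202 (234 CPM), 1.51-fold (1.22 to 1.87), and Cdc20 had 25 against 42, at 0.21 (-0.57 to 0.96). Top2a had 121 (272 CPM) against 176 (204 CPM), 1.33-fold (1.05 to 1.69), and Cenpf 61 (137 CPM) against 75 (86.9 CPM), 1.58-fold (1.11 to 2.24). Mki67 went the other way from A20 cells, with 93 (209 CPM) against 217 (252 CPM) and a log2 ratio of -0.27 (-0.63 to 0.09), whose interval holds 0.

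The shares of T cells that held these genes had wide intervals that overlapped between the libraries, which does not show the shares to be equal. Thinned to 4000 UMIs, Ccna2 was found in 26.7% (14.6 to 41.9%) and 16.7% (8.29 to 28.5%), Ube2c in 28.9% and 28.3%, Top2a in 40.0% and 35.0%, and Mki67 in 35.6% and 35.0%, and the intervals of the libraries overlapped for all 10. These shares come from a single random draw. Averaged over all possible draws, the expected shares were 26.6% and 20.9% for Ccna2, 25.8% and 28.4% for Ube2c, and 39.8% and 29.6% for Top2a. For Mki67 they were 35.1% and 30.0%, and for Cenpf 25.6% and 15.7%, where the draw gave 20.0% and 15.0%. Unthinned shares were 35.6% and 40.0% for Ccna2 and 44.4% and 45.0% for Mki67. Cells with 5 or more members numbered 9 of 45 (20.0%, 9.58 to 34.6%) and 10 of 60 (16.7%, 8.29 to 28.5%). Within positive T cells, unthinned, Ccna2 made up 3.27 UMIs per 10000 with TAK-981 and 1.70 with vehicle, and Cenpf 3.19 and 1.63. Ube2c made up 6.06 and 4.31, and Mki67 3.76 and 3.74. These values move with depth, and Ccna2-positive T cells were shallower with TAK-981, with medians of 12919 against 21919 UMIs. The thinned UMIs per positive cell were 1.75 and 1.9 for Ccna2 (12 and 10 cells) and 1.67 and 1.78 for Cenpf (9 and 9). They were 1.5 and 2.24 for Mki67 (16 and 21 cells) and 3.69 and 2.53 for Ube2c (13 and 17). These values come from a single draw, rest on few cells and carry no interval, so that no direction is read from them.

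A few cells, and cells with a B cell transcript, weigh on these T cell values. The 3 cells with most member UMIs held 39.2% of them with TAK-981 and 26.0% with vehicle, and a single cell held 25.5% of the TAK-981 UMIs of Ube2c. Without those 3 cells of each library 2 members, in place of 4, were at least 1.5-fold higher, and Ube2c stood at 0.16. Cd79a, which T cells lack, was found in 9 of 45 and 13 of 60 of the T cells, and these held 23.0% and 42.4% of the member UMIs, the vehicle ones with a median of 26364 UMIs per cell. Without them the members made up 16.6 and 10.4 UMIs per 10000, 5 or more members were found in 7 of 36 and 5 of 47 cells, Cenpf stood at 1.28 and Mki67 turned to 0.52. NK cell markers made up 2.36 and 0.46 UMIs per 10000 of the T cell class and monocyte/macrophage markers 2.86 and 0.79, and the part of these cells in the result was not tested. Cells with a Cd8a or Cd8b1 UMI, 22 and 37, held 16.0 and 11.3 member UMIs per 10000, and cells without, 23 and 23, held 12.8 and 10.3.

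Genes of G1/S lay on the other side in T cells, with the Cd79a-positive cells included. No list was computed without those cells. Of the 46, 37 were below 0, with 16 at least 1.5-fold lower and 1 higher, and a median log2 ratio of -0.32. Over all 7868 genes with at least 10 UMIs in T cells, 15.0% were at least 1.5-fold higher and 18.7% lower. Several of the list counts below lie near these shares. Hells, a chromatin remodeller of replicating cells, had 21 UMIs against 87, at -1.09 (-1.86 to -0.39), Ung 8 against 40, at -1.37 (-2.67 to -0.25), and Mcm3 44 against 139, at -0.70 (-1.23 to -0.21). Among spindle motor and cytokinesis genes 7 of 32 were at least 1.5-fold higher and 1 lower (median 0.20), among them Kif11, the motor that separates spindle poles, at 0.75 (0.02 to 1.47). Of 18 mitotic entry genes 4 were higher and 1 lower (median 0.07), with Cdkn3 at 1.49 (0.56 to 2.44), and of 26 checkpoint and anaphase-promoting complex genes 2 were higher and 5 lower (median -0.08), with Pttg1, which encodes securin, at 0.97 (0.60 to 1.34). Of 20 CDK inhibitors and p53 targets 4 were higher and 2 lower (median 0.17), with Cdkn1a at 1.79 (0.91 to 2.71; 32 UMIs against 18). The DREAM, MuvB and E2F list had 10 of 21 at least 1.5-fold lower and 2 higher (median -0.37). Centromere and kinetochore genes had 4 of 33 higher and 5 lower (median -0.13). Those of condensin, cohesin and chromosome structure had 1 of 24 each way (0.04).

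Myeloid cells held few of these transcripts. The members made up 1.27 UMIs per 10000 in the TAK-981 (46 UMIs in 39 cells) and 1.48 in the vehicle library (79 UMIs in 44 cells). Only Top2a, Cenpf and Mki67 reached 10 UMIs over both libraries. Mki67 had 21 against 36 UMIs, at -0.22 (-1.07 to 0.59), Top2a 7 against 17, at -0.72 (-2.24 to 0.62), and Cenpf 8 against 6, at 0.97 (-0.74 to 2.78). By size 1 of these 3 was at least 1.5-fold higher, where 18.5% of all 6417 genes were, and 1 at least 1.5-fold lower, where 26.1% were, and all 3 intervals held 0. Of the other 7, Ccna2 had 3 and 6 UMIs, Cdk1 4 and 4, Ube2c 1 and 4, Aurka 1 and 3, Cdc20 1 and 2, Ccnb1 0 and 1, and Plk1 0 and 0.

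Single cells weighed heavily here: 1 cell held 52.2% of the member UMIs of its class with TAK-981 and 45.6% with vehicle, and 4 vehicle cells with Cd79a UMIs held 65.8%. Without cells that held Cd79a the members made up 1.20 and 0.58 UMIs per 10000, in 35 and 40 cells. Thinned, Mki67 was found in 7.69% (1.62 to 20.9%) and 18.2% (8.19 to 32.7%) of myeloid cells, 15.4% and 36.4% unthinned. For Plk1, 0 of 39 and 0 of 44 cells held a UMI. With 3 counts as the limit for a count of 0, shares of cells with a UMI of up to 7.69% and 6.82% are within counting error, which does not limit the share of cells that express the gene. Myeloid cells with 5 or more members numbered 0 and 1. That vehicle cell held Cd79a, and at least 5 UMIs of Cd79a, Cd79b, Jchain and Mzb1 together.

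Ordered by thinned share, myeloid cells were lowest for all 10 members in both libraries. The intervals of A20 and T cells overlapped for 10 of 10 members in each library, which does not show their shares to be equal. Those of A20 and myeloid cells overlapped for 2 members with TAK-981 and 1 with vehicle. Those of T and myeloid cells overlapped for 6 members with TAK-981 and 8 with vehicle, so their order is not settled for these. The thinned myeloid shares ran from 0% and 4.55% for Ccna2 and 0% and 2.27% for Ube2c to 7.69% and 18.2% for Mki67, against 26.3% and 27.9%, 31.2% and 33.8%, and 47.5% and 40.7% in A20 cells. The source of the myeloid UMIs, for example free RNA or dividing myeloid cells, was not tested. Before thinning, the myeloid cells had median depths of 8287 and 10636.5 UMIs and the A20 cells 16195 and 22309.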

How the data were processed

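Single-cell RNA was measured in 1 TAK-981 and 1 vehicle library. The deposited matrices hold UMI counts as whole numbers, which nothing had normalized or rescaled, for each gene in each barcode. Cell Ranger 2.1.1 and Seurat 2 are named in the submitters' processing notes, with no role given, and the genome build behind the counts is not given in the sources used here. The 10 genes, the cell classes and the gene lists were chosen with earlier results of these data known. All values were computed in Python 3.11.15 with numpy 2.4.6, scipy 1.17.1 and pandas 2.3.3, and plotted with matplotlib 3.10.9. UMIs were summed over the cells of a class and divided by the class total, as CPM or per 10000. Ratios carry exact conditional binomial intervals, levels exact Poisson intervals and shares Clopper-Pearson intervals, all at 95% and for counting error only. Genes needed at least 10 UMIs over both libraries, and calls were made by size (1.5-fold), without a test. Cells were thinned without replacement to 4000 UMIs (seed 0). No doublet caller was run: cells with Cd79a, with 5 or more UMIs of Cd79a, Cd79b, Jchain and Mzb1 together, or with very high UMIs were left out in alternatives instead. All 10 members are named, and of each list the 2 highest and 2 lowest genes with at least 50 UMIs in A20 cells, and other list genes were chosen after their values were seen. Intervals were tested on simulated counts. Transcript lengths came from GENCODE and promoters from RefSeq. Alternatives were other scalings, thinning depths, filters and class limits.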

Additional observations from a re-analysis of the deposited data

Results flagged for a closer look

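Ccna2, cyclin A2, lay on opposite sides of 0 in the tumour cells and the T cells of the same libraries. Its log2 ratio of TAK-981 over vehicle was -0.12 (-0.18 to -0.06) in A20 cells and 0.91 (0.46 to 1.35) in T cells, both with counting intervals that leave out 0. The difference between the classes was not tested, since each arm is 1 library. In A20 cells the ratio was 0.02 when both libraries were weighted to the same depth, -0.29 (-0.53 to -0.05) in cells under 10000 UMIs and between -0.02 and 0.05 in the 3 deeper ranges, and in T cells it rests on 87 and 90 UMIs, of which single cells held 12.6% and 12.2%.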

How the results depend on the processing

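No paired analysis was possible because each arm has 1 library, and for the same reason no replicate could be left out. In A20 cells Mki67 stayed above 0 under its 13 alternatives (0.17 to 0.45). Of 130 alternative values of single members 86 moved by less than their counting interval, 39 by more, and 5 turned. A sign change was called turned only where the interval over all A20 cells left out 0. Those were Ccna2 at 0.058 and Cdc20 at 0.011 when cells were thinned to 1000 UMIs, and Ccna2 at 0.017 and Ccnb1 at 0.043 when weighted to the same depth. The last was Ccnb1 at 0.015 under 2% mitochondrial UMIs. Aurka, Ube2c and Top2a, whose intervals held 0, kept their sign under 8, 11 and 8 of their 13 alternatives. The A20 median of -0.09 was 0.056 when weighted to the same depth and 0.0098 under 2% mitochondrial UMIs, and thinning to 1000 UMIs made 1 member, Plk1 at -0.82, at least 1.5-fold lower. The difference in A20 cells with 5 or more members was 5.57 points under 2% mitochondrial UMIs. Between 2 and 10% the share was higher with TAK-981 only in the range from 5 to 7.5%. In T cells the 4 members at least 1.5-fold higher were 1 after thinning to 4000 UMIs, 1 after thinning to 1000 and 2 without the 3 cells of each library with most member UMIs. Of 109 alternative values of single members in T cells 104 moved by less than their interval, and 84 of 90 for shares of cells. In myeloid cells, where 1 to 3 members could be measured under most alternatives, the median was -1.41 after thinning to 4000 UMIs and 0.90 without Cd79a-positive cells. The number at least 1.5-fold higher there was 0 after thinning, 0 at a minimum of 50 UMIs and 2 without Cd79a-positive cells. The number at least 1.5-fold lower was 0 under 5% mitochondrial UMIs, 0 at 50 UMIs, 3 at 1 UMI in each library, 0 without Cd79a-positive cells and 0 under 5 UMIs of the B cell markers Cd79a, Cd79b, Jchain and Mzb1. Thinning to 1000 UMIs left no myeloid value. Weighted values, the 2% limit, the expected shares and the removal of 3 cells were chosen after seeing the data. Causes were not tested, and rare members in host cells are limited by depth.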

Other observations

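The A20-type barcodes left out for 10% or more mitochondrial UMIs held more member UMIs in sum than the cells kept, but not of each member. The 10 members made up 21.9 UMIs per 10000 in 275 such barcodes of the TAK-981 library and 20.6 in 88 of the vehicle library, against 12.03 and 11.76 in the A20 cells kept. After thinning to 4000 UMIs, 34.9% (29.3 to 40.9%) and 26.1% (17.3 to 36.6%) of these barcodes held 5 or more of the 10 genes. Most of the difference lay in Mki67, Top2a and Cenpf. Plk1 stood at 0.50 and 0.34 UMIs per 10000 in them, against 0.32 and 0.36 in the A20 cells kept, and Ccnb1 at 0.80 and 0.64, against 0.71 and 0.77. Lower than in the cells kept were Ube2c, at 1.05 and 0.85 against 2.14 and 2.13, and Cdc20, at 0.54 and 0.56 against 0.76 and 0.87. Their median depth was 5972 and 7622 UMIs.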
